A study of Mus musculus with 6 samples.

Results

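The comparison described here set B cells carrying MYD88 with the L265P substitution against B cells carrying the empty vector. It used 4 of the 6 arrays of the series, 2 labelled MYD88_L265P and 2 labelled EV, chosen by their labels and not by any measured value. The study asked which genes change in mouse B cells when signalling proteins with such substitutions are introduced, and the remaining 2 arrays come from cells given IKK with the K171E change (IKK_K171E). Every group shared the same handling. Mature B cells were taken from mouse spleen, activated in culture, infected with retrovirus by centrifugation, returned to mitogen for 36 hours and washed, after which they spent 24 hours without anti-CD40. Cells with green fluorescence from the vector were then sorted, and their total RNA, prepared in TRIzol, was given a biotin label and read on Affymetrix mouse ST 1.0 arrays. The EV group received a vector with the fluorescent protein alone, and the MYD88_L265P group received one that also encoded the mutant adaptor. The labels give no strain, age or sex for the mice, no promoter for the vectors and no species for the inserted sequence. They call the 2 arrays of each group biological replicates, without saying whether separate animals or separate cultures are meant. The p-values weigh a difference against the spread between such arrays, whatever they stand for. That spread was estimated over all 6 arrays, IKK_K171E included.

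MYD88 is the cytoplasmic adaptor of the Toll-like and interleukin-1 receptors. On receptor binding it gathers the IRAK kinases into an assembly called the myddosome, which passes the signal through TRAF6, TAK1 and the IKK kinases to NF-kB. The L265P substitution lies in the receptor-binding domain and is recurrent in human B cell lymphomas, above all in Waldenström macroglobulinaemia. In normal spleen, signals through this adaptor push B cells to divide and, in part, to become antibody-secreting plasmablasts, a step that swaps the transcription factors of the resting B cell for Prdm1, Xbp1 and Irf4.

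The deposited values are log2 signals per feature, normalized by the authors before deposit. A feature is a probe set for 1 transcript cluster, and 21542 of the 24743 features had exactly 1 gene symbol and were tested. Array medians lay between 8.03 and 8.13, and they were lower in MYD88_L265P (8.05 and 8.03) than in EV (8.13 and 8.12). Replicates correlated across features at 0.989 in EV and 0.995 in MYD88_L265P, while the 4 pairs between these groups lay from 0.967 to 0.977. A feature was called when its limma p-value, adjusted by Benjamini-Hochberg over all 21542 features, was below 0.05. The model was fitted to all 6 arrays, so the IKK_K171E arrays also entered each standard error and p-value. They stayed in the fits that left out an EV or MYD88_L265P array. All differences are MYD88_L265P minus EV on the log2 scale unless another pair is named. Fewer cells of a type and less RNA per cell cannot be told apart in such bulk samples.

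The transduced gene was read first. Myd88 gave log2 signals of 9.30 and 9.35 in EV and 12.25 and 12.31 in MYD88_L265P, with 9.43 and 9.14 in IKK_K171E. Both MYD88_L265P arrays stood far above the 4 other arrays, which matched the labels (log2 difference 2.96, SE 0.12, limma adjusted p = 2.81e-04, 95% interval of the difference 2.69 to 3.23). The feature cannot separate the construct from the cell's own transcript, nor show the substitution.

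Among 40 measured genes on the path from the adaptors to NF-kB, 6 were higher and 4 lower in MYD88_L265P, against 9.02% and 7.44% of all genes when each was read by its brightest feature. Apart from Myd88, the strongest member was Tnip3, of the family of A20-binding proteins. Tnip3 read 7.63 and 7.35 in EV and 10.46 and 11.03 in MYD88_L265P (log2 difference 3.25, SE 0.19, limma adjusted p = 0.00119), with 8.24 and 8.23 in IKK_K171E, and its groups were 2.83 log2 units apart at their nearest arrays. Nfkbiz, a nuclear cofactor of NF-kB, was higher by 0.96 (adjusted p = 0.0245), and Ube2n, the ubiquitin-conjugating enzyme used by TRAF6, by 0.98 (adjusted p = 0.00946). Tirap, which bridges MYD88 to its receptors, read 8.48 and 8.54 in EV and 9.16 and 9.23 in MYD88_L265P (0.69, adjusted p = 0.0115). Tnfaip3, which encodes A20, a feedback inhibitor, read 9.07 and 9.16 in EV and 9.55 and 9.74 in MYD88_L265P (0.53, adjusted p = 0.0414).

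The called members that fell were of mixed function. Nfkbie, an inhibitor that holds NF-kB in the cytoplasm, read 9.02 and 9.18 in EV and 8.51 and 8.37 in MYD88_L265P (-0.66, adjusted p = 0.0122). Rel, the NF-kB subunit prominent in lymphocytes, read 11.78 and 11.95 in EV and 11.26 and 11.26 in MYD88_L265P (-0.60, adjusted p = 0.0293), and in both genes all MYD88_L265P values lay below all EV values. Irf5, a transcription factor used downstream of the adaptor, differed by -0.51, adjusted p = 0.0164, and Sigirr, a receptor that dampens Toll-like signalling, by -0.40, adjusted p = 0.0287. The kinases and the ubiquitin ligase nearest the adaptor had small differences that missed the threshold. Irak1 had 0.06, Irak3 0.20, Traf6 0.05 and Map3k7, the gene of TAK1, 0.11, and the sign turned under quantile normalization for Irak1, Traf6 and Map3k7 and without MYD88_L265P replicate 2 for Irak3. Nfkbia, the best known NF-kB-induced inhibitor, had 0.43 (adjusted p = 0.113), Bcl3 0.45 (adjusted p = 0.216) and Nfkb2 -0.17 (adjusted p = 0.218). The list's median difference was -0.04, and it was 0.04 when the arrays were shifted to a common median. With EV replicate 1, EV replicate 2, MYD88_L265P replicate 1 or MYD88_L265P replicate 2 left out, 5, 5, 2 and 2 members were called higher and 5, 0, 0 and 0 lower. Myd88 and Tnip3 were called without each of the 4 arrays, and the other called members lost their calls without 1 or more arrays, among them both MYD88_L265P arrays for each.

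**Figure D1:**
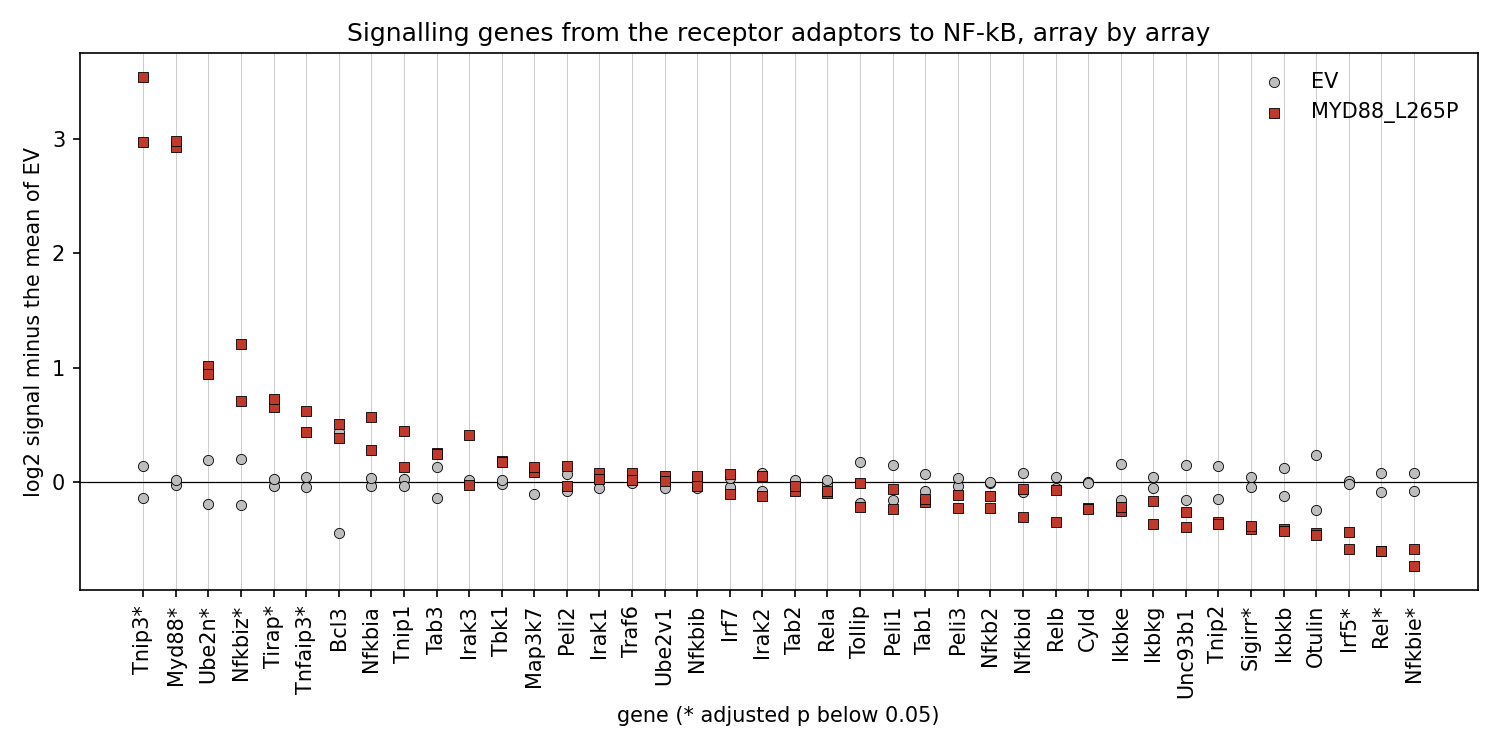
Log2 signal of each EV array (circles) and each MYD88_L265P array (squares) minus the EV mean, for the 40 measured genes from the receptor adaptors to NF-kB, ordered by difference, with called genes starred. Tnip3 and Myd88 stand far above EV on both MYD88_L265P arrays (mean differences 3.25 and 2.96), and the remaining genes lie much nearer the EV mean.

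Tnip3 is shown with its promoter because it rose most in this list and carries a match to the NF-kB site, whose consensus was searched on both strands of the 250 bases before each start site in RefSeq (GRCm38.p6). The match is in capitals and the window is chr6:65590148-65590397, plus strand.
Tnip3: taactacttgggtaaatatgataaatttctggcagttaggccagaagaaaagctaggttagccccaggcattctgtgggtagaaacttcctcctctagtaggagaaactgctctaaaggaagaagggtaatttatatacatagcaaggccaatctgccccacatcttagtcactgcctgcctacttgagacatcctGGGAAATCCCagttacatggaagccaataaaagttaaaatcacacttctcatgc
Of all 32851 promoters of 27025 genes searched, 3.90% hold such a match. Among the measured genes of this list 12 of 47 promoters did, those of Nfkbia, Nfkb2 and Rel included, and among its called higher genes 2 of 7 did (Tnip3 and Tnfaip3). A match is a description of the letters and not a site shown to be used.

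Over all features, 3586 were called, 16.6% of those tested, of which 2007 (9.32%) were higher and 1579 (7.33%) lower in MYD88_L265P. They represent 1838 and 1514 genes. In each of the 3586 called features both MYD88_L265P arrays lay on 1 side of both EV arrays. This separation alone is common, as the groups did not overlap in 71.1% of all features tested. The separated features were unequal in direction, with 10312 lower (47.9%) and 5004 higher (23.2%), and the median difference over all features was -0.11. Shifting the arrays to a common median moved that median to -0.02 and the calls to 2582 higher and 739 lower, so the share of calls that were higher went from 56.0% to 77.7%. Large differences were mostly upward: 387 called features were higher and 91 lower by 2-fold or more, and 25 and 1 by 4-fold or more. The median size of a called difference was 0.68 among those higher and 0.46 among those lower.

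The position of the calls depended on signal. Among the 5386 features with the highest mean signal, 22.2% were higher and 10.8% lower, with a median difference of 0.09. Among the 5386 with the lowest, 1.28% were higher and 4.83% lower, with a median of -0.15. The shares of all genes set beside the gene lists were not matched for signal. The proteasome list, for example, had a median level of 10.8, within the range of the highest signals. Counts also depended on the arrays fitted. Leaving out an array leaves a single array in its group, which by itself lowers precision. A lost call therefore does not show that the array left out drove a difference. Leaving out EV replicate 1 gave 1858 higher and 1181 lower, EV replicate 2 gave 827 and 493, MYD88_L265P replicate 1 gave 269 and 146, and MYD88_L265P replicate 2 gave 142 and 49. Across the table, 129 features were called higher and 44 lower with all 4 arrays and without each of them in turn.

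**Figure D2:**
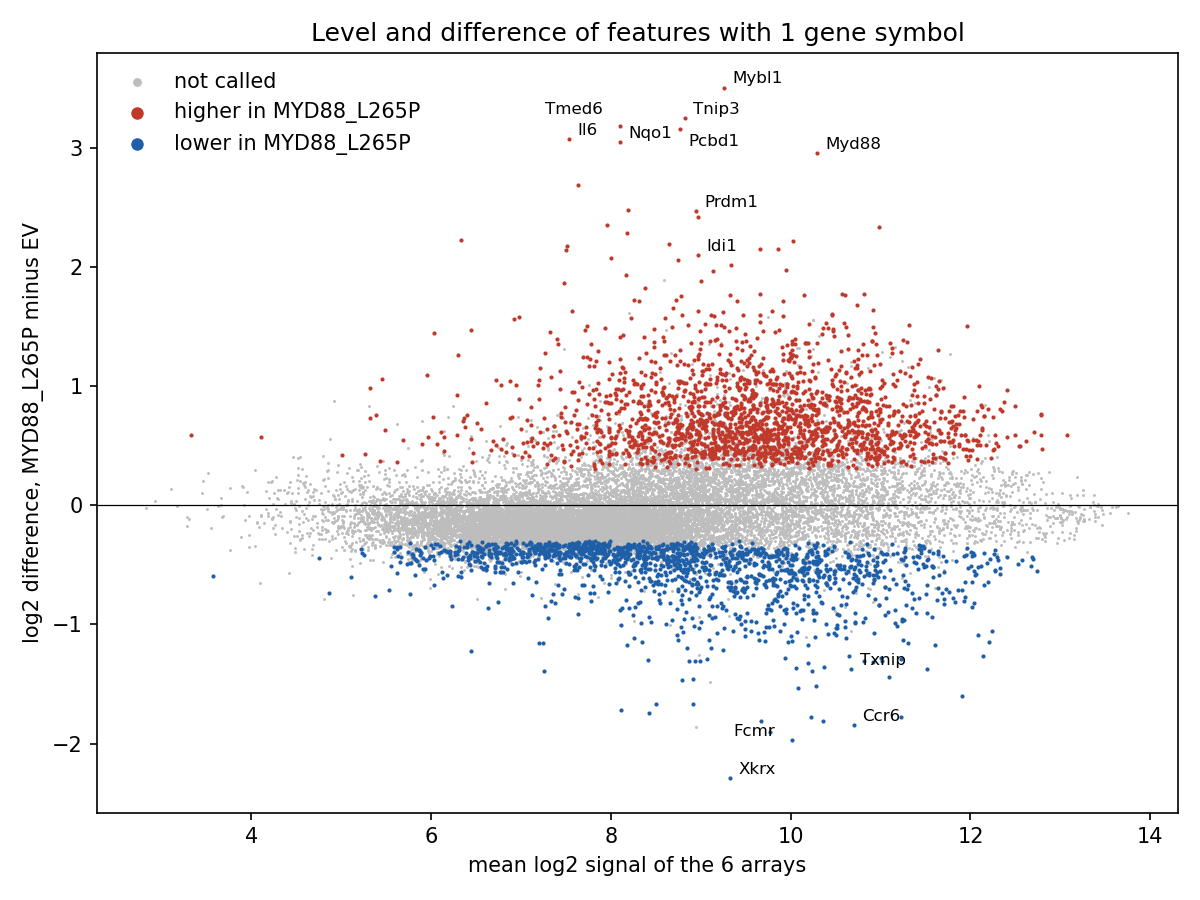
Difference between MYD88_L265P and EV (vertical, log2) against the mean log2 signal of the 6 arrays (horizontal) for 21542 features, with called features coloured by direction. Upward differences reach 3.51 (Mybl1) and downward ones 2.29 below 0 (Xkrx), and calls are sparse at low signal.

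Named first are the called genes with the widest gap between the nearest arrays of the groups. On the upper side these 15 genes covered several functions. Mybl1, which encodes the MYB family transcription factor A-MYB known from germinal centre B cells, read 8.50 and 7.30 in EV and 11.10 and 11.72 in MYD88_L265P (log2 difference 3.51, SE 0.37, limma adjusted p = 0.0044). Prdm1, the gene of BLIMP-1 that drives plasma cell differentiation, read 7.92 and 8.13 in EV and 10.65 and 10.34 in MYD88_L265P (log2 difference 2.47, SE 0.22, limma adjusted p = 0.00396). The IKK_K171E arrays of Prdm1, at 8.65 and 7.96, lay below both. Il6, the cytokine that acts on B cells and plasma cells, read 7.19 and 5.39 in EV and 9.44 and 9.28 in MYD88_L265P (log2 difference 3.07, SE 0.50, limma adjusted p = 0.0122). Its EV arrays were far apart, yet both were below MYD88_L265P, and the call was lost without MYD88_L265P replicate 1 (2.99, adjusted p = 0.0778) and without replicate 2 (3.15, adjusted p = 0.0812).

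Next came enzymes of metabolism and a carrier. Nqo1, a quinone reductase under NRF2 control, read 6.80 and 7.13 in EV and 9.49 and 10.54 in MYD88_L265P (log2 difference 3.05, SE 0.32, limma adjusted p = 0.0044). Pcbd1, which recycles the tetrahydrobiopterin cofactor, read 7.66 and 7.73 in EV and 10.67 and 11.04 in MYD88_L265P (log2 difference 3.16, SE 0.13, limma adjusted p = 2.81e-04). In both genes the IKK_K171E arrays stayed within 1 log2 unit of EV. Dctd, the deoxycytidylate deaminase that feeds thymidylate synthesis, read 8.40 and 8.16 in EV and 10.36 and 10.50 in MYD88_L265P (log2 difference 2.15, SE 0.21, limma adjusted p = 0.00425). Idi1, an isomerase of the mevalonate route to sterols, read 7.78 and 7.62 in EV and 9.87 and 9.72 in MYD88_L265P (log2 difference 2.10, SE 0.23, limma adjusted p = 0.0049). A brighter feature of Idi1 differed by 2.02. In IKK_K171E, Dctd read 10.59 and 9.92, and for both genes those arrays lay nearer to MYD88_L265P than to EV. Slc7a3, a carrier of cationic amino acids, read 7.77 and 8.11 in EV and 10.28 and 10.45 in MYD88_L265P (log2 difference 2.42, SE 0.16, limma adjusted p = 0.00166).

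The remaining genes of this group were related to vesicles and signalling, or less well described. Tmed6, of the p24 cargo receptor family between the endoplasmic reticulum and the Golgi, read 7.00 and 7.33 in EV and 10.26 and 10.43 in MYD88_L265P (log2 difference 3.18, SE 0.13, limma adjusted p = 2.81e-04). Rnd3 read 7.26 and 7.44 in EV and 9.53 and 10.13 in MYD88_L265P (log2 difference 2.48, SE 0.19, limma adjusted p = 0.00313). Gnat3, the G protein subunit gustducin of taste cells, read 5.54 and 5.40 in EV and 7.52 and 7.88 in MYD88_L265P (log2 difference 2.23, SE 0.14, limma adjusted p = 0.00166), a low signal in every array. Depdc7 differed by 2.69 (adjusted p = 0.00224) and Fam135a by 2.17 (adjusted p = 6.65e-04). Over the 15 genes, Myd88 and Tnip3 included, the lowest MYD88_L265P value stood 1.94 to 2.94 log2 units above the highest EV value. All but Il6 were called without each of the 4 arrays.

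The genes with the widest gaps on the lower side included several surface and antigen presentation genes of B cells. Fcmr, the Fc receptor for IgM, read 10.66 and 11.26 in EV and 9.14 and 8.84 in MYD88_L265P (log2 difference -1.97, SE 0.20, limma adjusted p = 0.00425). Ccr6, the receptor for CCL20 carried by mature B cells, read 11.37 and 11.59 in EV and 9.91 and 9.37 in MYD88_L265P (log2 difference -1.84, SE 0.18, limma adjusted p = 0.00425). Cd72, an inhibitory co-receptor of the B cell receptor, read 12.10 and 12.30 in EV and 10.78 and 10.88 in MYD88_L265P (log2 difference -1.37, SE 0.12, limma adjusted p = 0.00348). On these 3 genes the IKK_K171E arrays lay between the groups. H2-Oa, a chain of the class II chaperone that restrains peptide loading in B cells, read 11.05 and 10.95 in EV and 9.45 and 9.51 in MYD88_L265P (log2 difference -1.52, SE 0.12, limma adjusted p = 0.00285). Zfp318, a nuclear protein needed for IgD expression, read 11.84 and 12.32 in EV and 10.43 and 10.19 in MYD88_L265P (log2 difference -1.77, SE 0.17, limma adjusted p = 0.00425). Slc14a1, a urea carrier, differed by -1.31, adjusted p = 0.00326.

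Xkrx, of the XK family of membrane proteins, had the greatest fall among the called genes, from 10.05 and 10.72 in EV to 8.34 and 7.86 in MYD88_L265P (log2 difference -2.29, SE 0.24, limma adjusted p = 0.0044). Lrrk2, a large kinase present in B cells, read 10.36 and 10.63 in EV and 8.80 and 8.57 in MYD88_L265P (log2 difference -1.81, SE 0.18, limma adjusted p = 0.00425). A brighter feature of Lrrk2 read 12.48 and 12.79 in EV and 11.16 and 10.90 in MYD88_L265P (log2 difference -1.60). Txnip, which binds thioredoxin and limits glucose uptake, read 11.44 and 11.48 in EV and 10.12 and 10.05 in MYD88_L265P (log2 difference -1.38, SE 0.09, limma adjusted p = 0.00161). The replicates of Txnip were close together in both groups. Adgre1, the gene of the macrophage marker F4/80, differed by -1.78, adjusted p = 0.00425, and its value in EV, 11.30 and 11.11, was above the median feature (8.14). Tgfb3, a member of the TGF-beta family, read 9.45 and 8.80 in EV and 7.50 and 7.32 in MYD88_L265P (log2 difference -1.72, SE 0.21, limma adjusted p = 0.00576). Tgfb3 lost its call without MYD88_L265P replicate 2 (-1.63, adjusted p = 0.0551). The sorting receptor Sorl1 (-1.53), Tcp11l2 (-1.46), the polymerase subunit Pold4 (-1.40) and the secretase regulator Gsap (-1.28) completed the 15, all called without each array. At their nearest arrays the 15 genes were 1.22 to 1.71 log2 units apart.

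**Figure D3:**
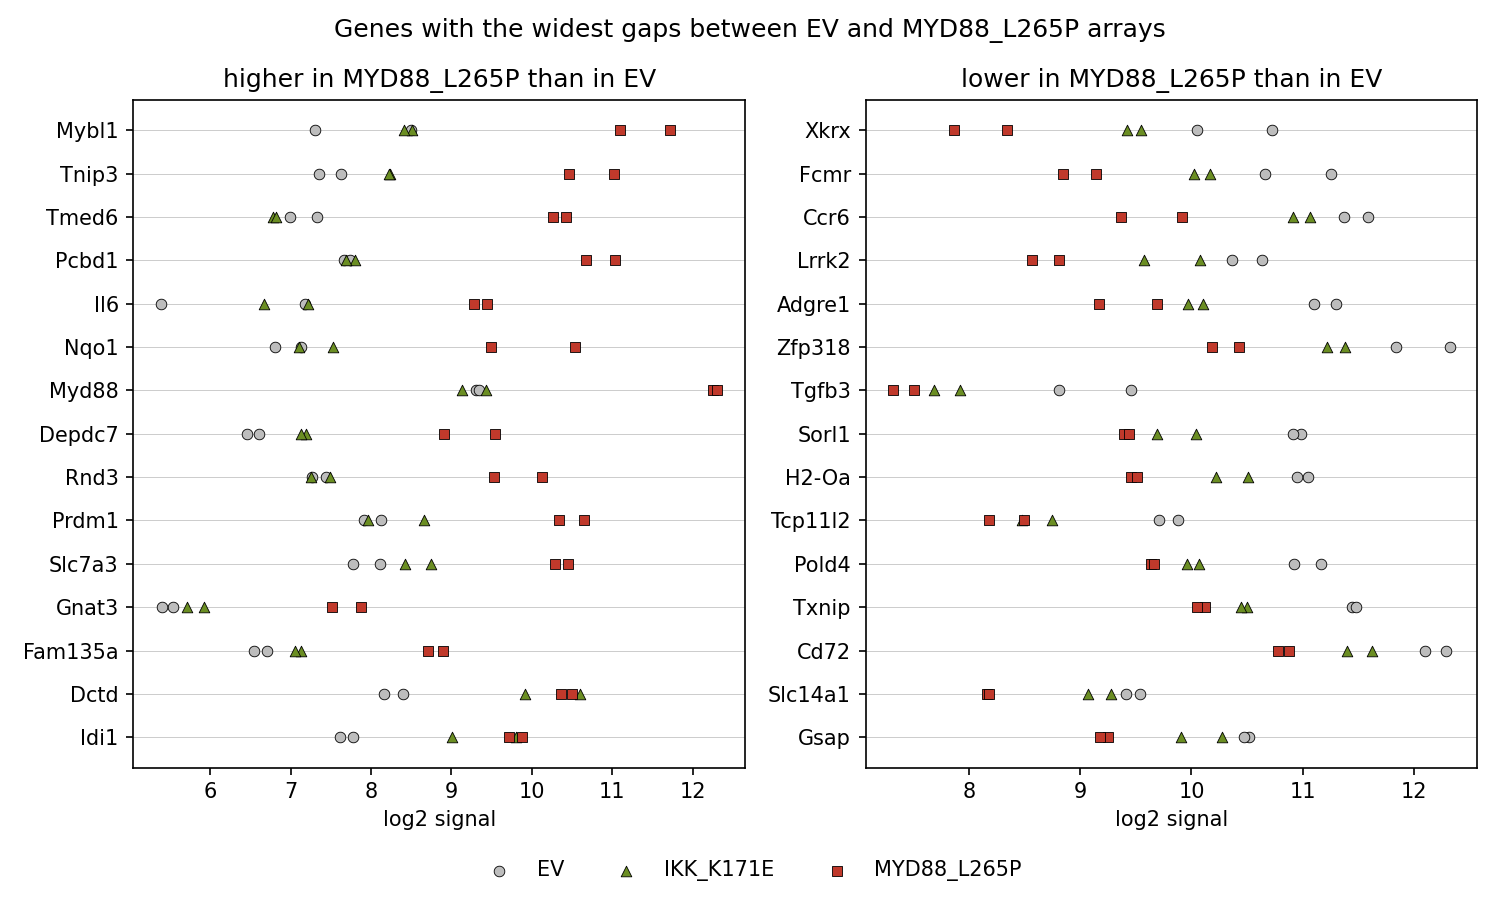
Log2 signal on each of the 6 arrays for the 15 called genes in each direction with the widest gap between EV (circles) and MYD88_L265P (squares), with IKK_K171E as triangles. The MYD88_L265P values stand clear of EV in each gene, and the IKK_K171E values lie near EV in some genes (Pcbd1, Rnd3) and near MYD88_L265P in others (Dctd, Tcp11l2).

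IKK_K171E cells went through the same transduction, so these 30 genes were also tested between the mutants. The comparisons share the MYD88_L265P arrays. The 30 genes were chosen for the distance of those same arrays from EV, which by itself favours calls here. Of the 30, 21 differed between MYD88_L265P and IKK_K171E, a contrast in which 377 features (1.75%) were called in all. Because of that choice, the share over all features is no fair base for the count of 21. Tmed6 was higher in MYD88_L265P than in IKK_K171E by 3.54 (95% interval 3.24 to 3.84, limma adjusted p = 2.45e-04) and Pcbd1 by 3.11 (2.80 to 3.42, adjusted p = 3.14e-04). Prdm1 was higher by 2.19 (1.66 to 2.72, adjusted p = 0.0106). Fcmr was lower in MYD88_L265P than in IKK_K171E, at -1.11 (-1.57 to -0.64, adjusted p = 0.0454). Idi1, Dctd, Il6, Adgre1, Tgfb3, Sorl1, Tcp11l2, Pold4 and Txnip missed the threshold. Dctd differed by 0.18 (95% interval -0.32 to 0.67, adjusted p = 0.639) and Idi1 by 0.39 (-0.16 to 0.94, adjusted p = 0.374). Txnip had -0.39 (-0.59 to -0.19, adjusted p = 0.0819) and Il6 2.42 (1.23 to 3.60, adjusted p = 0.0718). Their unadjusted intervals leave sizeable differences possible, so a missed threshold does not show equal levels. With 1 array left out, 9 to 22 of the 30 passed, the fewest without MYD88_L265P replicate 2 and 11 without MYD88_L265P replicate 1.

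A test against a change of 1.5-fold, in place of a test against 0, was passed by 24 features on the upper side and 4 on the lower. Besides genes already named, these included Il10, an anti-inflammatory cytokine that B cells can secrete, which read 7.05 and 6.76 in EV and 8.81 and 8.74 in MYD88_L265P (log2 difference 1.87, SE 0.14, limma adjusted p = 0.00285), with IKK_K171E at 6.91 and 6.59. Il10 thus stood above the 4 other arrays on both MYD88_L265P arrays. Rbm47, an RNA-binding protein, differed by 1.93, adjusted p = 0.00201, and Car13, a carbonic anhydrase, by 1.76, adjusted p = 8.69e-04. Timd2, a receptor for semaphorin and ferritin, differed by 1.72, adjusted p = 0.00334. Tent5c, a poly(A) polymerase that stabilises immunoglobulin mRNA in plasma cells, read 8.31 and 8.40 in EV and 9.80 and 9.94 in MYD88_L265P (1.51, adjusted p = 0.00192). Sfmbt2 (1.58), Neto2 (1.58), Eid3 (1.51) and the ribosome assembly factor Rrs1 (1.72) also passed, and each of the 9 genes was called without each array.

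Transcription factors of lymphocytes moved in both directions, more often down. Of 106 measured, 11 were higher and 25 lower, against 9.02% and 7.44% of all genes, and the list's median was -0.20. Beside Prdm1 and Mybl1, the activator protein Batf, needed for class switching, read 9.16 and 9.17 in EV and 10.49 and 10.76 in MYD88_L265P (1.46, adjusted p = 0.00737), and Nfil3 read 8.58 and 8.43 in EV and 9.90 and 9.89 in MYD88_L265P (1.39, adjusted p = 0.00326). Irf1, an interferon-induced factor, read 10.96 and 10.60 in EV and 9.62 and 9.30 in MYD88_L265P (-1.32, adjusted p = 0.00579). Satb1, a chromatin organiser of lymphocytes, read 11.85 and 11.83 in EV and 10.50 and 10.61 in MYD88_L265P (-1.28, adjusted p = 0.00396), and Zbtb20 differed by -1.14, adjusted p = 0.00845. Bach2, the repressor that opposes Prdm1, read 10.37 and 10.32 in EV and 9.70 and 9.97 in MYD88_L265P (-0.51, adjusted p = 0.0448), but its IKK_K171E values were lower still (9.30 and 9.59), and it lost its call whichever array was left out. Myc read 11.28 and 10.48 in EV and 11.56 and 11.59 in MYD88_L265P and did not pass (adjusted p = 0.0881), its EV arrays lying far apart. Of these, Nfil3 and Satb1 were called without each array, Batf and Irf1 lost their calls without MYD88_L265P replicate 2, and Zbtb20 without each MYD88_L265P array in turn. Without the arrays in turn, in the order used above, 13, 8, 6 and 4 members were higher and 18, 16, 4 and 2 lower. With arrays at a common median 14 were higher and 14 lower.

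Called markers of plasma cells were higher and those of B cells lower. Of 12 plasma cell markers 5 were higher and 0 lower, with a median difference of 0.60. Of 11 B cell markers 0 were higher and 6 lower, with a median of -0.52. Among all genes 9.02% were higher and 7.44% lower. Jchain, the joining chain of secreted IgM and IgA, read 8.86 and 9.81 in EV and 11.82 and 11.29 in MYD88_L265P (log2 difference 2.22, SE 0.60, limma adjusted p = 0.0474), a wide spread within each group. Xbp1, the factor that expands the secretory apparatus, read 9.19 and 9.06 in EV and 10.49 and 10.27 in MYD88_L265P (log2 difference 1.26, SE 0.16, limma adjusted p = 0.00657). Ell2, an elongation factor that directs the switch to secreted immunoglobulin mRNA, read 10.37 and 10.31 in EV and 11.67 and 11.21 in MYD88_L265P (log2 difference 1.10, SE 0.17, limma adjusted p = 0.0103). Derl3 differed by 0.83, adjusted p = 0.034. Irf4 had 9.51 and 9.79 in EV and 10.67 and 10.29 in MYD88_L265P and missed the threshold (0.83, adjusted p = 0.0568), although its groups did not overlap. The surface markers Sdc1 (CD138) and Tnfrsf17 (BCMA) stayed close to EV, at -0.12 and -0.12, and in both genes the groups overlapped. Other surface markers on the list are not described here.

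On the B cell side, Fcer2a, the low-affinity IgE receptor CD23, read 9.89 and 11.32 in EV and 9.01 and 8.57 in MYD88_L265P (log2 difference -1.81, SE 0.41, limma adjusted p = 0.0283). Cr2, the complement receptor CD21, read 11.20 and 11.70 in EV and 10.32 and 9.96 in MYD88_L265P (log2 difference -1.31, SE 0.18, limma adjusted p = 0.00824). Cd22, an inhibitory lectin, read 12.26 and 12.10 in EV and 11.40 and 11.38 in MYD88_L265P (-0.78, adjusted p = 0.00761). The receptor chain Cd79b differed by -0.67, adjusted p = 0.00789, the invariant chain Cd74 by -0.55, adjusted p = 0.0191 and the lineage factor Ebf1 by -0.52, adjusted p = 0.0296. Cd79a (-0.42), Ms4a1 (CD20, -0.28) and Pax5 (-0.24) missed the threshold. Cd74, Cd79a and Ms4a1 remained among the brighter features in every array, at 12.35 and 12.57, 10.52 and 10.77 and 12.54 and 12.63 in MYD88_L265P. These levels match the B cell label of the samples, but signal level alone does not identify the cells. Macrophage markers were bright too: Adgre1 read 11.30 and 11.11 in EV, and Lyz2 is given below. With the arrays left out in turn, 3, 3, 1 and 2 plasma cell markers were higher and 5, 5, 1 and 0 B cell markers lower. Among both lists, Prdm1 alone was called without each array. The calls of Jchain, Derl3 and Ebf1 were lost whichever array was left out, that of Ell2 without MYD88_L265P replicate 1 only and that of Cr2 without replicate 2 only. The other called markers lost theirs without each MYD88_L265P array in turn.

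Markers of other cells were read as a check of what the sorted cells could hold. Of 59 such markers (T cell, NK cell, monocyte and macrophage, dendritic cell, neutrophil and erythroid), 1 was higher and 10 lower (1.69% and 16.9%, against 9.02% and 7.44% of all genes). The T cell list had 3 of 11 lower, Cd3g (-0.67), Cd3e (-0.47) and Cd4 (-0.37), and the NK list 2 of 10, Klrd1 (-1.16) and Nkg7 (-0.39). Klrd1 read 8.09 and 7.43 in EV and 6.71 and 6.50 in MYD88_L265P. In the macrophage list Adgre1 was the single called gene of 12, while Lyz2 read 11.09 and 11.95 in EV and 11.94 and 11.70 in MYD88_L265P and Csf1r 7.66 and 8.20 in EV and 8.30 and 8.15 in MYD88_L265P. Among dendritic markers, Ccr9, also the gut-homing receptor of plasmablasts, read 7.42 and 7.59 in EV and 8.69 and 9.30 in MYD88_L265P (1.49, adjusted p = 0.00638). Flt3 (-0.88) and Zbtb46 (-0.56) were lower, as were Ly6g (-0.49) and Rhd (-0.41) on the neutrophil and erythroid lists. The mean log2 signal over the T cell list was 7.97 and 8.05 in EV and 7.81 and 7.64 in MYD88_L265P, and over the NK list 7.13 and 6.95 against 6.87 and 6.69. The macrophage list averaged 8.55 and 8.75 in EV and 8.69 and 8.51 in MYD88_L265P, and the dendritic list 7.85 and 7.78 against 7.75 and 7.74. The neutrophil list averaged 7.08 and 7.16 against 6.90 and 6.88, and the erythroid list 7.85 and 7.92 against 7.68 and 7.73. A log2 array signal has no true 0, so absence of a marker could not be read. The part of such cells in the differences described was not tested. Adgre1 and Ccr9 were called without each array, and the other called markers lost their calls without MYD88_L265P replicate 2.

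Along the secretory route, called members were mostly higher, while 107 of the 192 measured genes in 3 lists were not called higher. Of 58 measured genes of translocation into the endoplasmic reticulum and N-glycosylation, 31 were higher and 1 lower (median 0.43). Of 54 genes of its chaperones and of associated degradation, 28 were higher and 2 lower (median 0.44), and of 80 genes of vesicle transport to the Golgi, 26 and 2 (median 0.25). For all genes the shares were 9.02% higher and 7.44% lower. Creld2, a disulphide isomerase induced by misfolded protein, read 9.63 and 9.89 in EV and 11.47 and 11.04 in MYD88_L265P (log2 difference 1.49, SE 0.19, limma adjusted p = 0.00624). Pdia6, an isomerase of the same kind, read 9.79 and 9.84 in EV and 11.33 and 11.27 in MYD88_L265P (log2 difference 1.48, SE 0.20, limma adjusted p = 0.00748). Hspa5, the abundant chaperone BiP, read 11.52 and 11.45 in EV and 12.25 and 12.24 in MYD88_L265P (log2 difference 0.75, SE 0.12, limma adjusted p = 0.0107). All 3 had MYD88_L265P values above both EV values. Sdf2l1 (1.26), Hyou1 (1.24), Calr (0.91) and Hsp90b1 (0.59) were higher too, whereas Sdf2 differed by -0.83, adjusted p = 0.0153 and Herpud2 by -0.44, adjusted p = 0.022.

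Along the rest of the route, Tram2, a partner of the Sec61 channel, read 9.48 and 9.69 in EV and 10.88 and 10.76 in MYD88_L265P (1.23, adjusted p = 0.00396), and the oligosaccharyltransferase subunits Rpn1 and Ostc differed by 1.08 and 1.05. Stt3b, a catalytic subunit of that enzyme, was the member that fell (-0.38, adjusted p = 0.0265). In vesicle transport, Sec24d, a cargo adaptor of the COPII coat, read 7.75 and 7.75 in EV and 9.70 and 9.44 in MYD88_L265P (1.82, adjusted p = 0.00483). Lman1, a cargo lectin, differed by 1.26 and Ergic1 by 1.11. Sec22c (-0.41) and Tmed8 (-0.39) fell. Creld2, Sdf2l1, Tram2, Sec24d and Tmed6 were called without each array, and the other genes named on this route lost their calls without MYD88_L265P replicate 1 and without replicate 2. Left out in turn, the arrays gave 19, 11, 2 and 1 higher members in the first list, 20, 17, 3 and 4 in the second and 16, 8, 3 and 2 in the third. Their medians then stayed above 0, at 0.39 to 0.47, 0.45 to 0.51 and 0.22 to 0.27.

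Promoters of 2 of these chaperone genes are shown because they rose most among the genes with an endoplasmic reticulum stress element, the sequence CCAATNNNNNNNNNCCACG that binds NF-Y with ATF6 or XBP1. It was searched on both strands, and the match is in capitals. Creld2 is chr15:88819396-88819645, plus strand, with the match on the minus strand, and Pdia6 is chr12:17266339-17266588, plus strand (GRCm38.p6, RefSeq).
Creld2: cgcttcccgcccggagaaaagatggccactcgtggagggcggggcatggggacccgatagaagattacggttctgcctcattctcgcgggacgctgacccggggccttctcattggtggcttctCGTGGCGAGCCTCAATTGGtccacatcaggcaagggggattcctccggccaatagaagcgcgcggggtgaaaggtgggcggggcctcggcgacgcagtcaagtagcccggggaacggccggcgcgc
Pdia6: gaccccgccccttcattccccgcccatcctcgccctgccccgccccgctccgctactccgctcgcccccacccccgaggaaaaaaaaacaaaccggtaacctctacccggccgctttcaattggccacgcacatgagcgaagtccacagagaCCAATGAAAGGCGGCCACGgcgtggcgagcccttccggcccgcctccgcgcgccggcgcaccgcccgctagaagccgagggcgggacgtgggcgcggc
Of all promoters 0.11% held the element. In the chaperone list it was found in 10 of 57 promoters of measured genes and in 8 of 28 promoters of genes that were higher, which also included those of Hspa5, Hsp90b1, Calr, Canx, Dnajc3 and Derl3. In the other 2 lists it was found in 0 of 23 and 0 of 20 promoters of the higher genes.

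Genes of amino acid supply were read in 4 lists, to be set against 9.02% higher and 7.44% lower among all genes. Among 34 measured genes of the integrated stress response and its factor ATF4, 13 were higher and 0 lower (median 0.32). Among 29 genes of serine, one-carbon and non-essential amino acid synthesis, 13 were higher and 1 lower (median 0.46). Asns, asparagine synthetase, read 9.28 and 10.38 in EV and 12.09 and 12.25 in MYD88_L265P (log2 difference 2.34, SE 0.37, limma adjusted p = 0.0108), with the EV arrays more than 1 unit apart. Cth, which makes cysteine, read 7.49 and 7.52 in EV and 8.86 and 9.60 in MYD88_L265P (log2 difference 1.73, SE 0.22, limma adjusted p = 0.00646), and Shmt2, the mitochondrial serine hydroxymethyltransferase, read 8.62 and 8.89 in EV and 10.23 and 10.47 in MYD88_L265P (log2 difference 1.60, SE 0.29, limma adjusted p = 0.0166). Srm, spermidine synthase, differed by 1.97, adjusted p = 0.00962. Atf3, an early stress factor, read 8.57 and 8.30 in EV and 9.43 and 9.53 in MYD88_L265P (1.04, adjusted p = 0.00556), and Vldlr differed by 1.21, adjusted p = 0.0208. Mat2b, a regulator of S-adenosylmethionine synthesis, was the single lower member (-0.34, adjusted p = 0.0433).

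Carriers and synthetases showed different patterns. Of 35 amino acid carriers 9 were higher and 2 lower, with a median of -0.04 (0.05 at a common median). Slc7a5, the large neutral carrier LAT1, read 9.90 and 10.42 in EV and 11.74 and 11.58 in MYD88_L265P (1.49, adjusted p = 0.0154), and Slc7a11, the cystine carrier, 7.59 and 7.23 in EV and 8.25 and 8.53 in MYD88_L265P (0.98, adjusted p = 0.00959). Slc43a1 rose by 1.02, while Slc38a9, a lysosomal arginine sensor, fell (-0.90, adjusted p = 0.00568), as did Slc43a2 (-0.34, adjusted p = 0.0435). Of 21 cytosolic aminoacyl-tRNA synthetase genes, 12 were higher and 0 lower, with a median of 0.58. Tars, threonyl-tRNA synthetase, read 9.68 and 10.06 in EV and 11.05 and 11.12 in MYD88_L265P (1.22, adjusted p = 0.0154), Eef1e1, a scaffold of the synthetase complex, 9.53 and 8.90 in EV and 10.60 and 10.53 in MYD88_L265P (1.34, adjusted p = 0.0214), and Hars 9.50 and 9.39 in EV and 10.48 and 10.38 in MYD88_L265P (0.99, adjusted p = 0.0134). Without the arrays in turn there were 10, 10, 4 and 1 higher members in the stress response list, 11, 9, 2 and 1 in the serine list, 7, 4, 3 and 1 among carriers and 5, 5, 0 and 0 among synthetases. Cth and Slc7a3 were called without each array. Atf3, Slc7a11 and Slc38a9 lost their calls without MYD88_L265P replicate 2 only, and the rest without that array and at least 1 other.

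The C/EBP-ATF composite element, written TGATGNAA and read by ATF4, was searched in the same way. Promoters of Asns, Atf3 and Slc7a11 are shown because these genes rose in MYD88_L265P and their promoters hold it (capitals, GRCm38.p6, RefSeq). Asns is chr6:7693210-7693459, Atf3 is chr1:191183334-191183583 and Slc7a11 is chr3:50443614-50443863, all on the minus strand.
Asns: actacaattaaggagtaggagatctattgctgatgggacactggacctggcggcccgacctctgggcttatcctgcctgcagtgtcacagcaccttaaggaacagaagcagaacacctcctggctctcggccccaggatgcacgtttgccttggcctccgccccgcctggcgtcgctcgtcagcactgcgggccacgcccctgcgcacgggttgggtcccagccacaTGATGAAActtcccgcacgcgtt
Atf3: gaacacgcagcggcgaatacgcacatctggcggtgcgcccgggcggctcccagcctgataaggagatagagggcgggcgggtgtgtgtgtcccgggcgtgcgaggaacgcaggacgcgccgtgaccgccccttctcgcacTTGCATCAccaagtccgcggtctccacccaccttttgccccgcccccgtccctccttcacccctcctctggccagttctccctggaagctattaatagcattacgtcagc
Slc7a11: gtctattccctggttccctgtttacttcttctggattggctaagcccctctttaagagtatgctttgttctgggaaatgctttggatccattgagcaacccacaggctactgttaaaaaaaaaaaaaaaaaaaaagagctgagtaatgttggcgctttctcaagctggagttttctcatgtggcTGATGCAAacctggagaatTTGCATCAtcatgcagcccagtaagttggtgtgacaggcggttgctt
The element occurred in 3.45% of all promoters, in 9 of 34 promoters of measured genes of the stress response list and in 6 of 12 promoters of those called higher, the others being Chac1, Nupr1 and Vldlr. Chac1 read 8.74 and 8.98 in EV and 9.49 and 9.56 in MYD88_L265P (0.67, adjusted p = 0.0127), and Nupr1 8.02 and 8.25 in EV and 9.14 and 8.67 in MYD88_L265P (0.77, adjusted p = 0.024), and both lost their calls without MYD88_L265P replicate 1. Among the synthetases 2 of 8 promoters of higher genes held it, those of Tars and Gars.

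Nucleotide synthesis, protein turnover and folding in the cytosol were among the lists with the greatest share of higher members. Of 38 genes of purine, pyrimidine and deoxynucleotide synthesis, 22 were higher and 1 lower (median 0.57), against 9.02% and 7.44% of all genes. By 2-fold or more 12 were higher, where 387 of all 21542 features were. Besides Dctd, Uck2, a uridine-cytidine kinase, read 9.85 and 9.23 in EV and 11.30 and 11.33 in MYD88_L265P (log2 difference 1.78, SE 0.26, limma adjusted p = 0.00895), Ctps, CTP synthetase, 9.05 and 8.58 in EV and 10.42 and 10.41 in MYD88_L265P (1.60, adjusted p = 0.0179), and Tyms, thymidylate synthase, 9.31 and 8.81 in EV and 10.51 and 10.55 in MYD88_L265P (1.47, adjusted p = 0.00682). Samhd1, which degrades deoxynucleotides, fell (-0.55, adjusted p = 0.0224). Of 49 proteasome genes 33 were higher and 1 lower (median 0.54). Psmd1, of the regulatory particle, read 10.45 and 10.29 in EV and 11.56 and 11.56 in MYD88_L265P (1.19, adjusted p = 0.00873), Psmd7 9.69 and 9.62 in EV and 10.71 and 10.84 in MYD88_L265P (1.12, adjusted p = 0.0142), and Psme3, the nuclear activator, 10.53 and 10.47 in EV and 11.44 and 11.37 in MYD88_L265P (0.91, adjusted p = 0.00483). The member that fell was Psmb9, a subunit of the immunoproteasome (-0.42, adjusted p = 0.0477). Of 40 genes of the CCT chaperonin and cytosolic heat shock proteins, 25 were higher and 1 lower (median 0.50), with Hsph1 at 1.24, Stip1 at 1.16, Cct3 at 1.15 and the falling prefoldin subunit Pfdn5 at -0.67.

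These 3 lists depended on single arrays for their calls and not for their direction. Left out in turn, the arrays gave 18, 7, 2 and 1 higher members in nucleotide synthesis, 26, 13, 1 and 1 in the proteasome and 18, 8, 1 and 0 in the chaperonin list. Their medians then stayed at 0.55 to 0.68, 0.55 to 0.57 and 0.44 to 0.52. Dctd and Psme3 were called without each array, Tyms was lost without MYD88_L265P replicate 2 only, and the others named were lost without each MYD88_L265P array in turn.

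Many members of the mitochondrial lists rose, and few of the cytosolic ribosome. The shares among all genes were 9.02% higher and 7.44% lower. Of 76 mitochondrial ribosomal protein genes 36 were higher and 0 lower (median 0.45), of 43 import and chaperone genes 18 and 0 (median 0.42), and of 80 genes of the respiratory chain and ATP synthase 33 and 0 (median 0.41). Cycs, cytochrome c, read 10.72 and 10.40 in EV and 11.90 and 11.95 in MYD88_L265P (log2 difference 1.37, SE 0.15, limma adjusted p = 0.00468), and Ndufa1, of complex I, read 8.19 and 8.23 in EV and 9.41 and 9.43 in MYD88_L265P (log2 difference 1.21, SE 0.10, limma adjusted p = 0.0035). Timm8a1, an import chaperone of the intermembrane space, read 8.29 and 8.54 in EV and 10.18 and 10.08 in MYD88_L265P (log2 difference 1.71, SE 0.19, limma adjusted p = 0.00483), and Mrps28 read 8.49 and 8.44 in EV and 9.54 and 9.67 in MYD88_L265P (1.14, adjusted p = 0.00845). Each had both MYD88_L265P values above both EV values. Of 54 cytosolic ribosomal protein genes 1 was higher (Rpl14, 0.65, adjusted p = 0.0321) and 1 lower (Fau, -0.65, adjusted p = 0.0104), and the median was -0.12, near that of all features. Of 59 translation factors 19 were higher and 1 lower (median 0.24), with the cap-binding protein Eif4e higher by 1.03 (adjusted p = 0.0135) and the release factor Etf1 at 10.36 and 10.13 in EV and 11.18 and 11.27 in MYD88_L265P (0.98, adjusted p = 0.00939). Left out in turn, the arrays gave 33, 12, 2 and 0 higher mitochondrial ribosomal proteins, 13, 4, 1 and 1 import genes, 30, 11, 6 and 3 respiratory genes and 15, 8, 1 and 0 translation factors. Cycs, Ndufa1 and Timm8a1 were called without each array, and the other genes named here lost their calls without each MYD88_L265P array in turn.

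**Figure D4:**
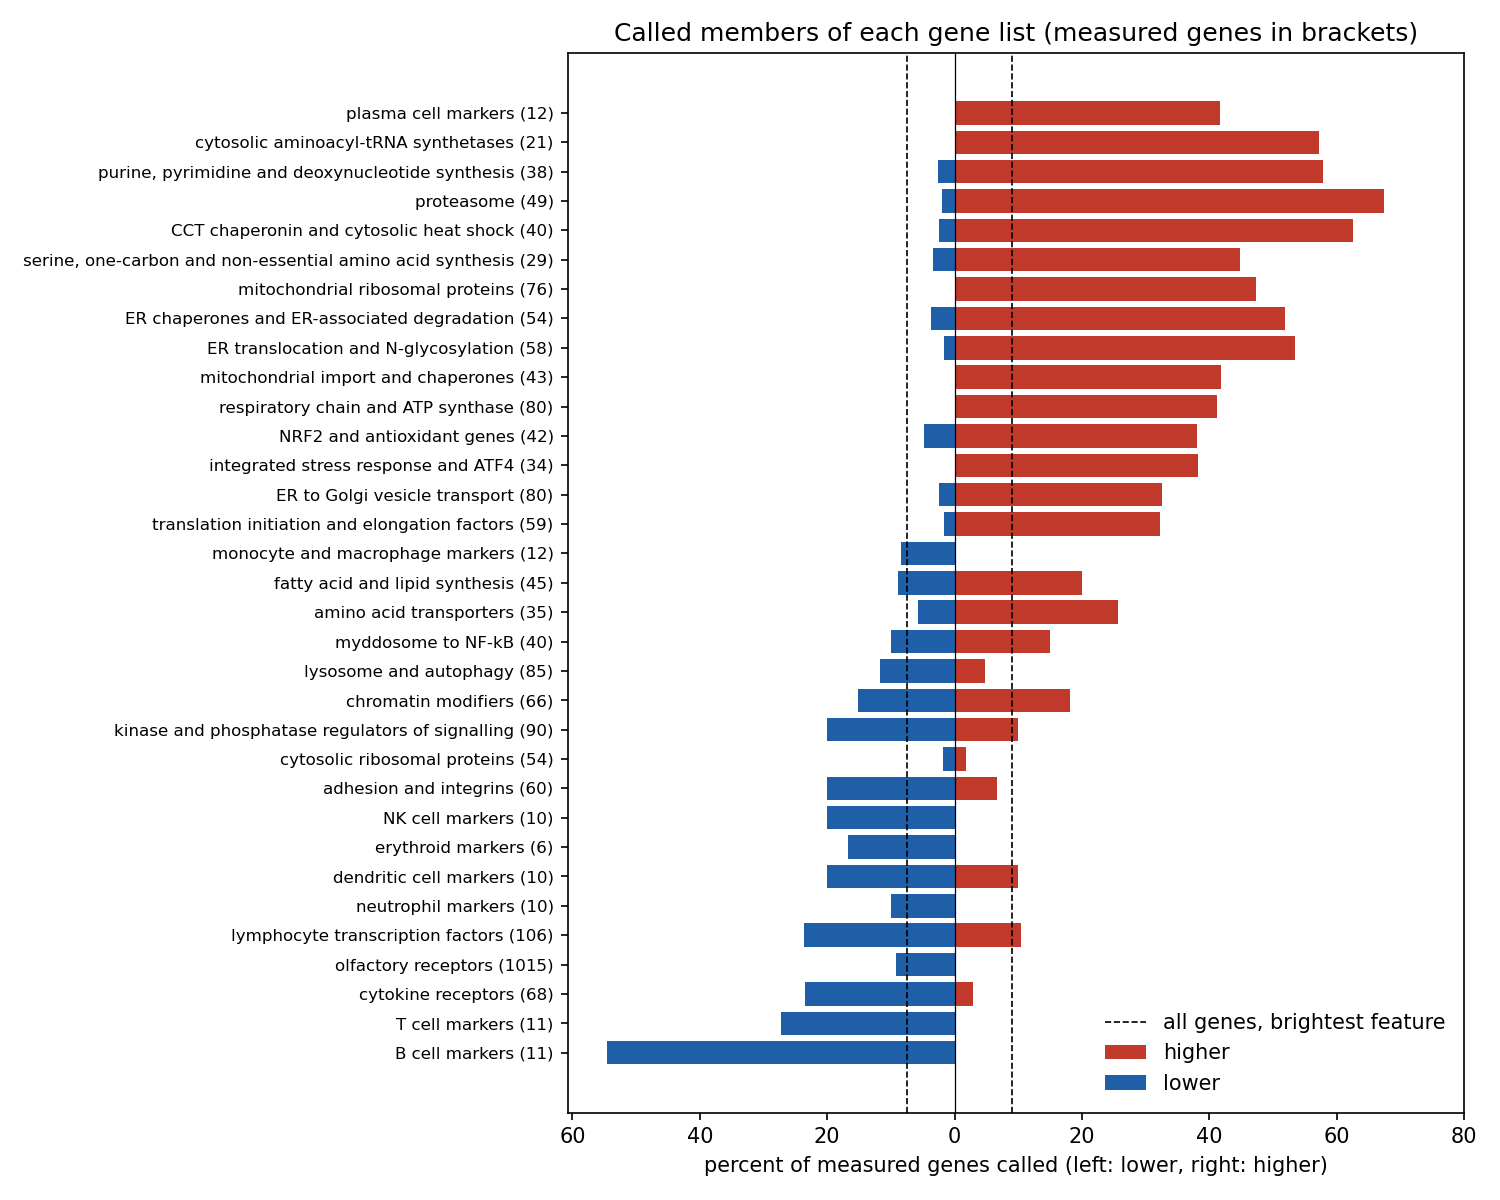
Percent of measured genes of each list that were called higher (right) or lower (left) in MYD88_L265P than in EV, with the shares over all genes as dashed lines and lists ordered by median difference. The proteasome list reaches 67.3% higher, and the B cell marker list 54.5% lower.

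Antioxidant and lipid genes had called members in both directions, to be set against 9.02% higher and 7.44% lower among all genes. Of 42 NRF2 target and antioxidant genes 16 were higher and 2 lower (median 0.35). Beside Nqo1, the modifier subunit of glutamate-cysteine ligase, Gclm, read 9.41 and 9.12 in EV and 10.67 and 10.62 in MYD88_L265P (1.38, adjusted p = 0.00941), the haem oxygenase Hmox1 8.39 and 8.36 in EV and 9.53 and 9.95 in MYD88_L265P (1.36, adjusted p = 0.00497) and Gstm5 6.64 and 6.74 in EV and 7.96 and 7.98 in MYD88_L265P (1.28, adjusted p = 0.00348). Ephx1, an epoxide hydrolase that NRF2 can also induce, went the other way, from 10.06 and 11.40 in EV to 8.89 and 8.77 in MYD88_L265P (-1.90, adjusted p = 0.0182), and Blvrb fell by less (-0.44, adjusted p = 0.0301). Of 45 lipid synthesis genes 9 were higher and 4 lower, with a median of 0.02. Elovl7, an elongase, read 7.06 and 7.15 in EV and 9.02 and 9.33 in MYD88_L265P (log2 difference 2.07, SE 0.16, limma adjusted p = 0.00285), Agpat5 8.30 and 8.02 in EV and 9.68 and 9.56 in MYD88_L265P (1.46, adjusted p = 0.00617), and the desaturases Fads1 and Scd1 differed by 0.85 and -0.40. With each array omitted in turn there were 16, 11, 7 and 5 higher antioxidant and 9, 5, 2 and 1 higher lipid genes. Nqo1, Hmox1, Gstm5 and Elovl7 were called without each array, while Gclm, Ephx1, Blvrb and Agpat5 lost their calls without each MYD88_L265P array in turn. Fads1 lost its call without MYD88_L265P replicate 2, and Scd1 whichever array was left out.

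Receptors, adhesion molecules and signalling regulators leaned downward. Of 68 cytokine receptors 2 were higher and 16 lower (median -0.23), against 9.02% and 7.44% of all genes. Il4ra, of the receptors for IL-4 and IL-13, read 11.09 and 10.41 in EV and 9.40 and 9.36 in MYD88_L265P (log2 difference -1.37, SE 0.20, limma adjusted p = 0.0091). Fas, the death receptor, read 10.36 and 10.39 in EV and 9.69 and 9.54 in MYD88_L265P (-0.76, adjusted p = 0.00579), with IKK_K171E at 10.97 and 10.95, above every EV and MYD88_L265P array. Tnfrsf18 differed by -0.93, adjusted p = 0.008. The 2 higher members were Bmpr1a (0.83, adjusted p = 0.0455) and Il6st (0.41, adjusted p = 0.0476), the signalling chain of the IL-6 receptor. Of 60 adhesion genes 4 were higher and 12 lower (median -0.12). Slamf1 read 9.41 and 9.45 in EV and 8.43 and 8.04 in MYD88_L265P (-1.19, adjusted p = 0.00691), and the tetraspanin Cd37 12.63 and 12.82 in EV and 11.62 and 11.71 in MYD88_L265P (-1.06, adjusted p = 0.00425). Cd44, which binds hyaluronan, read 11.21 and 11.15 in EV and 12.01 and 12.44 in MYD88_L265P (1.05, adjusted p = 0.00762), and it was the single adhesion member higher by 2-fold.

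Of 90 kinase and phosphatase regulators 9 were higher and 18 lower (median -0.10), where 9.02% and 7.44% of all genes were. Pim2, a survival kinase, was higher on both MYD88_L265P arrays (log2 difference 1.53, SE 0.17, limma adjusted p = 0.00483), and its relative Pim1 read 8.64 and 8.68 in EV and 9.83 and 9.61 in MYD88_L265P (1.06, adjusted p = 0.00568). Sgk3, a kinase related to AKT, differed by 1.11, adjusted p = 0.00752 and Rheb, the activator of mTORC1, by 0.74, adjusted p = 0.00936. Dgka, a diacylglycerol kinase, fell (-0.88, adjusted p = 0.0154), and so did Ptprj (-0.82, adjusted p = 0.00959) and Pik3ip1, a brake on PI3 kinase (-0.70, adjusted p = 0.00631). Another, less bright feature of Ptprj differed by -0.96 (limma adjusted p = 0.00425) and was called without each array. Of 85 lysosome and autophagy genes 4 were higher and 10 lower (median -0.05, and 0.03 at a common median). Psap, prosaposin, differed by -0.85, adjusted p = 0.00581 and the cathepsin gene Ctsh by -0.75, adjusted p = 0.00798, while Galc rose (1.03, adjusted p = 0.00483). Of 66 chromatin modifiers 12 were higher and 10 lower (median -0.06, and 0.03 at a common median), with Prmt1 at 1.02, Suv39h2 at 0.96, Kdm5b at -0.73 and Ezh1 at -0.64.

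Left out in turn, the arrays gave 10, 6, 4 and 0 lower cytokine receptors, 12, 6, 5 and 3 lower adhesion genes, 20, 10, 1 and 0 lower signalling regulators and 10, 4, 1 and 0 lower lysosome genes. At a common median the lower counts were 9, 8, 15 and 6. Cd37, Cd44, Pim1, Pim2 and Sgk3 were called without each array. Fas, Tnfrsf18, Slamf1, Pik3ip1, Psap and Galc lost their calls without MYD88_L265P replicate 2 only. The rest of those named in these paragraphs, read by their brightest feature, lost theirs without both MYD88_L265P arrays in turn.

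Olfactory receptor genes served as a large set of low signal, with a median level of 6.30. Of 1015 measured genes 1 was higher and 93 lower, which is 9.16% lower against 7.44% of all genes. Among the 5386 features with the lowest mean signal, 1.28% were higher and 4.83% lower. Their median was -0.22, and it moved to -0.10 under quantile normalization and to -0.13 at a common median, with 28 and 32 lower. Olfr172 had the greatest fall, 9.83 and 9.24 in EV and 8.04 and 8.10 in MYD88_L265P (-1.47, adjusted p = 0.00581). Olfr173 (-1.20) and Olfr177 (-1.22), near it in the RefSeq gene order, were also called. With each array omitted in turn there were 92, 19, 4 and 1 lower genes.

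Set side by side on the 6 arrays, the means of the lists showed how the groups were ordered. Relative to the mean of EV, nucleotide synthesis stood at 0.62 and 0.62 in MYD88_L265P, and at 0.53 and 0.19 in IKK_K171E. The proteasome list stood at 0.50 and 0.49, with 0.47 and 0.20 in IKK_K171E. In both lists IKK_K171E replicate 1 came close to MYD88_L265P and replicate 2 did not. The list of chaperones of the endoplasmic reticulum stood at 0.48 and 0.44 in MYD88_L265P, with 0.14 and -0.02 in IKK_K171E. Plasma cell markers stood at 0.90 and 0.62 against 0.23 and -0.24, and B cell markers at -0.63 and -0.63 against -0.18 and -0.13. Cytokine receptors lay at -0.17 and -0.24 in MYD88_L265P and above EV, at 0.10 and 0.07, in IKK_K171E. No list was tested as a set, and these means share their EV arrays.

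**Figure D5:**
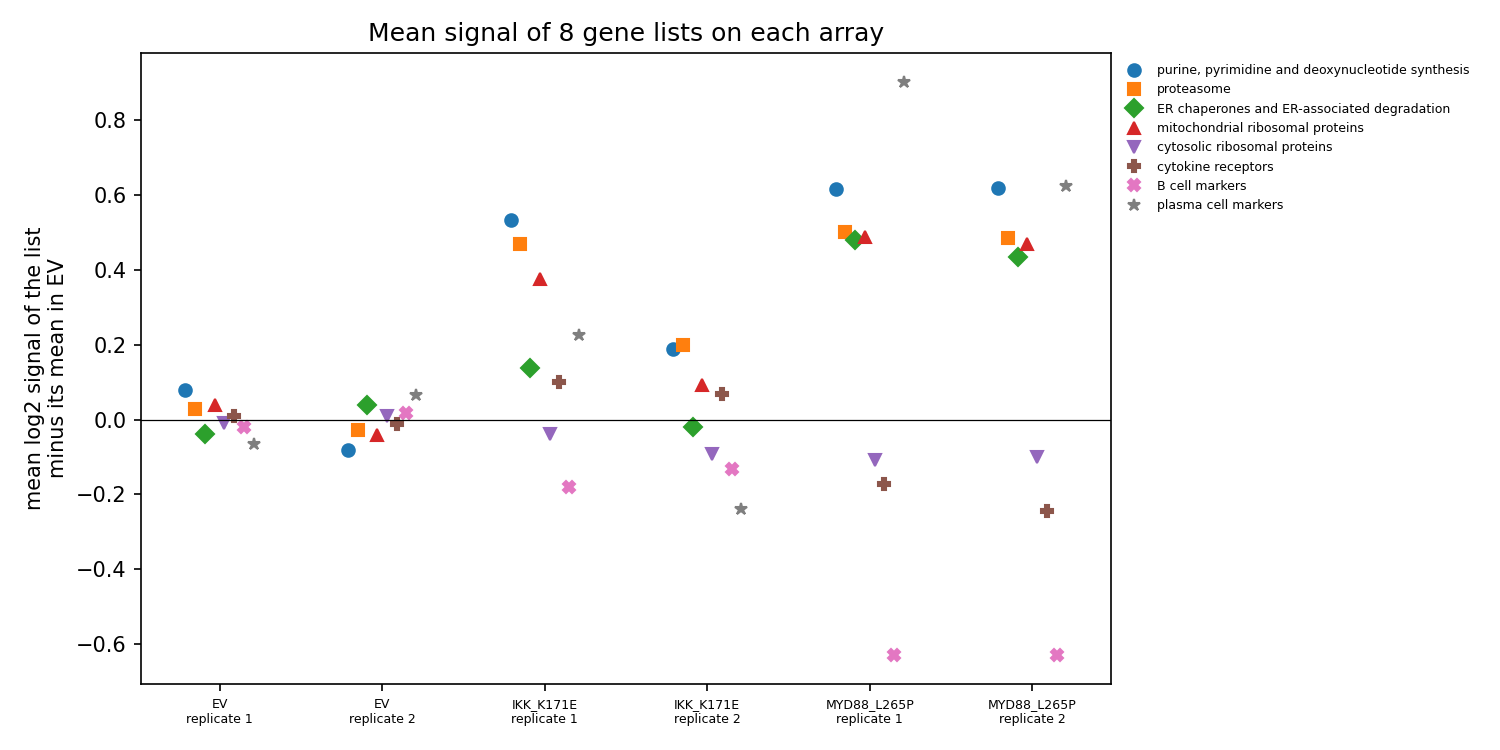
Mean log2 signal of the genes of 8 lists on each of the 6 arrays, minus the mean of the 2 EV arrays for the same list. The B cell markers lie at -0.63 on both MYD88_L265P arrays, and the plasma cell markers at 0.90 and 0.62.

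Large differences without a call were few. Of features that differed by 2-fold or more, 53 higher and 7 lower missed the threshold. Among all features whose groups overlapped, the greatest differences belonged to Gm24463 (3 features), Il1r2, Ifitm3 and Parpbp. Il1r2, a decoy receptor for interleukin-1, read 9.05 and 7.69 in EV and 7.70 and 7.11 in MYD88_L265P (-0.97, adjusted p = 0.127). Ifitm3, an interferon-induced membrane protein, read 9.74 and 9.22 in EV and 10.90 and 9.71 in MYD88_L265P (0.83, adjusted p = 0.159). Parpbp read 10.21 and 8.54 in EV and 10.10 and 10.24 in MYD88_L265P (0.79, adjusted p = 0.23). In each of these genes the nearest arrays of the groups passed each other. The features of Gm24463 carried nearly the same values and differed by 1.37 to 1.47.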

How the data were processed

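The 6 arrays were grouped by their labels, 2 each for EV, IKK_K171E and MYD88_L265P, with replicates numbered after the descriptions. The authors deposited log2 values per feature. The submitters' processing notes name oligo and limma without versions, and the method of background correction and normalization, and the genome build, are not given in the sources used here. The values, 2.55 to 14.5, were neither transformed nor filtered, and no detection p-values were used, so features at background level were kept. Symbols came from the platform annotation (21542 features with 1 symbol and 19818 genes, 1522 with several, 1679 with none), and 112 features in 46 sets carry values identical to another feature of the same gene.

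Group means of all 6 arrays were fitted in 1 model with limma 3.58.1 in R 4.3.3, with variances moderated by empirical Bayes (residual degrees of freedom 3, prior 4.17), two-sided tests and Benjamini-Hochberg adjustment over all features. The fit was tested on simulated data for 21542 features, of which 200 were changed. It called 23.9% of 1.5-fold, 73.1% of 2-fold and 97% of 4-fold changes, and 7 unchanged features. Far fewer features changed there than were called in the data, so these shares do not carry over directly. List members were read by the brightest feature of each gene. Named were Myd88, the 15 called genes in each direction with the widest gap between the nearest arrays of the groups, up to 4 called members per direction of each of 25 lists by size of difference, members of the signalling list and of 8 marker lists, and the 6 features with the greatest difference whose groups overlapped. Il10, Rbm47, Car13, Timd2, Tent5c, Sfmbt2, Neto2, Eid3, Rrs1, Hspa5, Hsp90b1, Calr, Bach2, Myc, Chac1, Nupr1 and the small RNA genes fall outside this rule and were chosen after their values were seen. The members and lists were chosen with earlier results of these data known. Alternatives covered normalization, the variance model, array weights, filters, the arrays fitted, a replicate block, a fold threshold and each array left out. Promoters (250 bases before the start) and microRNAs came from RefSeq tables.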

Additional observations from a re-analysis of the deposited data

Results flagged for a closer look

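Features outside the main comparison, those without exactly 1 gene symbol, also differed between the groups in a limma fit of all 24743 features, with Benjamini-Hochberg adjustment over all of them. Of 1522 features with several symbols, 94 stood above and 72 below EV in the MYD88_L265P group (10.9% of them). Of 1679 features with no symbol, 78 were higher and 83 lower (9.59%). In the same fit 3418 of all 24743 features were called, 1963 higher and 1455 lower, so both shares lay below that of the whole table. In each of the called features of these 2 kinds both MYD88_L265P arrays lay on 1 side of both EV arrays. Such separation was found in 70.4% of all 24743 features. Features without exactly 1 symbol carry no single gene name, and among the counts given here they entered only those for all features of the table.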

How the results depend on the processing

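Counts of features depended on the arrays fitted and on the test. Over the 4 arrays left out in turn, the count of higher features ranged from 142 to 1858, of lower features from 49 to 1181, of called features with separated groups from 191 to 3039 and of those with a 2-fold change from 147 to 787, against 2007, 1579, 3586 and 478. Without MYD88_L265P replicate 2 all 191 called features were among the 3586. Of the 30 genes tested against IKK_K171E, 9 to 22 passed, against 21. A test against a 1.5-fold change left 24 higher and 4 lower features. At a common median 739 features were lower. The replicate block gave 2348 higher and 1780 lower features. The descriptions number the replicates 1 and 2 in every group, and deviations of same-numbered arrays correlated at 0.105 to 0.211, with only 2 numbers, so the numbers were not taken to pair the arrays. Other fits gave 1706 higher and 1426 lower (quantile normalization), 2124 and 1430 (4 arrays), 2108 and 2058 (trended, robust variance), 2420 and 2225 (array weights), 2126 and 1717 (low signal left out), 1823 and 1518 (brightest feature per gene) and 1963 and 1455 (all features). Of 161 features named by gap or list, 10 lost their call under quantile normalization (among them Sec22c, Slc43a2 and Il6st), 14 at a common median (among them Sec22c, Tmed8, Stt3b, Blvrb, Slc43a2, Mat2b, Psmb9, Scd1 and Sigirr), and 27, 51, 93 and 113 without EV replicate 1, EV replicate 2, MYD88_L265P replicate 1 and MYD88_L265P replicate 2, while 0 reversed. The reversed differences belonged to genes that were not called: under quantile normalization Irak1 (-0.0965), Map3k7 (-0.0297), Traf6 (-0.0965), Sdc1 (0.0002) and Tnfrsf17 (0.0242), and at a common median Rela (0.0034). With 1 array left out, Irak3 ranged from -0.0202 to 0.414, Lyz2 from -0.123 to 0.728, Parpbp from -0.0404 to 1.63 and Sdc1 from -0.250 to 0.0150. The cause was not tested. Arrays of 2 per group limit the precision.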

Other observations

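Features of small RNA genes, looked at after the values of the table were seen, moved in different ways. Of 53 features of small nucleolar RNA genes, which guide chemical changes of ribosomal RNA and mostly lie in introns of host genes, 11 were higher and 0 lower by limma with Benjamini-Hochberg adjustment over 21542 features (9.32% and 7.33% of all features), with a median difference of 0.41. Snord22 read 9.49 and 9.54 in EV and 10.95 and 10.95 in MYD88_L265P (log2 difference 1.43, SE 0.12, limma adjusted p = 0.00348), and Snord42a read 7.96 and 7.78 in EV and 9.14 and 9.25 in MYD88_L265P (log2 difference 1.32, SE 0.11, limma adjusted p = 0.00348). Snora23 differed by 1.02, adjusted p = 0.00396 and Snord87 by 1.38, adjusted p = 0.0208. The first 3 were called without each array, and Snord87 lost its call without EV replicate 2, MYD88_L265P replicate 1 or replicate 2. Of all 53 features, those not called are included in the median.

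Of 301 features of microRNA genes 5 were higher and 28 lower, against 9.32% and 7.33% of all features. Their median was -0.16, close to that of all features (-0.11). Mir142, a microRNA of blood cells, read 9.57 and 10.53 in EV and 9.02 and 8.88 in MYD88_L265P (-1.10, adjusted p = 0.0457), its EV arrays far apart. Mir342 read 9.07 and 9.25 in EV and 8.52 and 8.22 in MYD88_L265P (-0.80, adjusted p = 0.0114), and Mir18, of the cluster that MYC induces, read 5.73 and 5.91 in EV and 6.87 and 6.62 in MYD88_L265P (0.92, adjusted p = 0.00747). Mir142 lost its call without EV replicate 2, MYD88_L265P replicate 1 or replicate 2, Mir342 without MYD88_L265P replicate 2 and Mir18 without MYD88_L265P replicate 1. These features read transcript from the gene and not the processed microRNA. Shown for each of these 3 genes is 1 mature sequence from RefSeq (GRCm38.p6), with the seed, bases 2 to 8, in capitals. The products of the other arms, miR-142a-5p, miR-342-5p and miR-18a-3p, are not shown.
miR-142a-3p: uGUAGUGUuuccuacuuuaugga
miR-342-3p: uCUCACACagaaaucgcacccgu
miR-18a-5p: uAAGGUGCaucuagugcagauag
No seed is shared among the 3 sequences shown.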
